A study of Mus musculus with 3 samples.

Results

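The iron handling and heme oxygenase genes described here are 8 protein-coding mouse genes: Hmox1, Slc40a1, Fth1, Ftl1, Slc11a1, Slc11a2, Tfrc and Slc39a14. They were chosen by name and found by symbol in the GENCODE M1 annotation of the mm9 genome, out of 22350 protein-coding genes on chromosomes 1 to 19 and X. The values are ChIP-Seq tags of RNA polymerase II carrying phosphate on Ser5 of its C-terminal domain (Ser5 Pol_II), a form found from initiation onwards along transcribed genes. Primary bone marrow-derived macrophages of female Fvb mice were used on day 7 of differentiation in medium conditioned by L929 cells, a source of macrophage growth factor. The sources used here give no age and no engineered allele. The 3 libraries were Ser5 Pol_II of untreated cells, Ser5 Pol_II of cells given 10 ng/ml lipopolysaccharide (LPS) for 2 h, and input DNA of untreated cells, which served as the background for both. The labels of these libraries give LPS alone, whereas the study's methods elsewhere name LPS with gamma interferon for stimulated macrophages, so an interferon treatment cannot be told apart here. Each condition had 1 library, so there was no replicate spread, no test was possible, and all intervals below are 95% intervals for counting error only. Fewer responding cells and less Ser5 Pol_II per cell cannot be told apart in such bulk chromatin.

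Macrophages take up iron from transferrin and from the heme of engulfed red cells, store it in ferritin and return it to the circulation. Heme oxygenase opens the heme ring and frees its iron, ferritin heavy and light chains build the storage shell, and ferroportin is the only known cellular iron exporter. During infection macrophages are known to hold iron back from microbes. Many of these genes are also controlled after transcription by iron regulatory proteins that bind their mRNAs, a layer that Pol_II ChIP-Seq does not measure.

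The Ser5 libraries held 7616771 tags (untreated) and 6249819 tags (LPS), and the input held 7533308. Values are given as tags, or as RPM, the tags scaled to a library of 1000000, and densities are RPM per kb of sequence. On the macrophage marker list, 7 of 7 gene bodies held at least 2 times the input density in untreated cells and 6 of 7 after LPS, and the summed density of the list was 190 untreated and 93.9 after LPS. The T cell (0 of 4), B cell (0 of 3) and fibroblast (0 of 3) markers stayed below that level in both Ser5 libraries. Of the neutrophil markers 0 of 4 reached it untreated and 1 of 4 after LPS (Camp), and of the erythroid markers 1 of 4 (Klf1) and 0 of 4. Hbb-b1, a hemoglobin gene that defines red cells, had 0 tags in both Ser5 libraries, but the input held only 1 tag there. The known LPS response genes Ccl5, Tnf, Il1b and Cxcl10 were between 9.66 and 396 times higher in the library labelled LPS, in the direction its label gives. Lyz2 had the highest density of the macrophage markers (105 untreated and 42.6 after LPS). Of the 7 macrophage markers 5 were lower after LPS, while Emr1 (3.01 times) and Sfpi1 (1.44 times) were higher. The part of these markers in the ratios below was not tested.

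The sequences printed first lie upstream of Hmox1 and Fth1, inside Ser5 peaks. They carry letters known for the response of these genes to heme and oxidants. Whether these letters have a part in the Ser5 ratios was not tested. TGACNNNGC is the core of the antioxidant response element, bound by the activator Nrf2 (Nfe2l2) or the heme-sensing repressor Bach1 with small Maf proteins. TGAGTCA is the AP-1 and NF-E2 core. Both were searched on both strands, capitals mark every match, and the motifs can overlap, since a TGAGTCA preceded by GC matches both. The windows were chosen after the peaks had been seen and were drawn around motif sites, so each holds matches by construction. All are on the forward strand of mm9, the strand of both genes, at chr8:77607818-77607943, chr8:77613567-77613687 and chr19:10053056-10053168.
Hmox1, 9.61 kb before the TSS: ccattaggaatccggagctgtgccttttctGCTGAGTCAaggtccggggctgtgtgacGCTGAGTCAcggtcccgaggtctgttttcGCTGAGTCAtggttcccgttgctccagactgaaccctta
Hmox1, 3.86 kb before the TSS: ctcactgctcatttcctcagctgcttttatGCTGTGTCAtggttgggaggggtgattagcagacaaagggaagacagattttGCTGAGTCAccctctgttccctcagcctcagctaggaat
Fth1, 4.08 kb before the TSS: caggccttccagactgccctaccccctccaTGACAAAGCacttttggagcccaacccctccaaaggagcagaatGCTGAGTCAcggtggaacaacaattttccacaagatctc
The Hmox1 window at 9.61 kb held 3 matches to TGACNNNGC, and each of them overlapped 1 of 3 matches to TGAGTCA. The Hmox1 window at 3.86 kb and the Fth1 window each held 2 matches to TGACNNNGC and 1 to TGAGTCA. A match is a run of letters and not a measured binding site.

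The 250 bases before the TSS, here the 5′ end of the gene record, were read for the same letters. TGACNNNGC was in 0 of the 8 windows, against 10.0% of all 22350 protein-coding genes. TGAGTCA was in 1, that of Slc39a14 (212 bases before the TSS; 3.86% of all genes), and the NF-kB motif was in 1, that of Ftl1 (17 bases before the TSS; 7.69%). The promoters of both ferritin genes and of Tfrc, which had the lowest gene-body ratio, are printed in the direction of transcription, with capitals for 4 core elements added after the sequences had been read: the TATA box, written TATAA and searched on this strand only, and on either strand the CCAAT box, the E-box CACGTG and the letters TGACGT of the cAMP response element. Their mm9 positions are chr19:10056943-10057192 (Fth1, forward), chr7:52715255-52715504 (Ftl1, reverse) and chr16:32608756-32609005 (Tfrc, forward).
Fth1: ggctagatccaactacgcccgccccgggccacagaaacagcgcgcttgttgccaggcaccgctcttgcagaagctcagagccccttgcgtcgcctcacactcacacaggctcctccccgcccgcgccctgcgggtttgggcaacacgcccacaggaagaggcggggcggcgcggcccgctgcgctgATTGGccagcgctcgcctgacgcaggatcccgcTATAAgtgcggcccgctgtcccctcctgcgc
Ftl1: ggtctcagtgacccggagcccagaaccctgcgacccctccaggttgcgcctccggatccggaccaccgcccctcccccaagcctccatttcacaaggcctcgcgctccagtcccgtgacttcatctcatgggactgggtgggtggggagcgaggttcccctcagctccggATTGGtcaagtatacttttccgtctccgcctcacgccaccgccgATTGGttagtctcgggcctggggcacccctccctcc
Tfrc: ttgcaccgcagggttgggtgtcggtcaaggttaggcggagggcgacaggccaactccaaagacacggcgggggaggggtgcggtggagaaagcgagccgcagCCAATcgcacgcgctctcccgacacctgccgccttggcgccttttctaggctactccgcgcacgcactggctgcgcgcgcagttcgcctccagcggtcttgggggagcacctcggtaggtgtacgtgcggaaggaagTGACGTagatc
TATAA stood 31 bases before the TSS of Fth1, and 16.1% of all promoters held it. CCAAT or its complement was in both ferritin promoters, 64 bases before the TSS of Fth1 and 80 and 36 bases before that of Ftl1, and also in that of Tfrc at 148 bases. It occurred in 7816 of all 22350 promoters. TGACGT was 11 bases before the TSS of Tfrc (7.19% of all promoters), and CACGTG was in the windows of Hmox1, 16 bases before the TSS, and Slc39a14, 86 bases before it (6.52%).

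Ser5 Pol_II spanned a wide range of levels at these genes. In untreated cells the gene-body density fell from Fth1 (224 RPM per kb) over Ftl1 (120), Hmox1 (21.2), Slc11a1 (6.14), Slc11a2 (4.63), Tfrc (2.73) and Slc39a14 (0.996) to Slc40a1 (0.262). The counting intervals of neighbours in that order did not overlap. After LPS the order was the same except that Slc39a14 (1.31, 1.19 to 1.45) came before Tfrc (1.03, 0.876 to 1.21), with intervals that overlapped. Both ferritin genes were among the most heavily occupied genes of these cells, since 99.9% of protein-coding genes had a lower density than Ftl1 in each library and Fth1 lay above Ftl1. At the other end, 40.8% of genes lay below Slc40a1 after LPS.

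**Figure D1:**
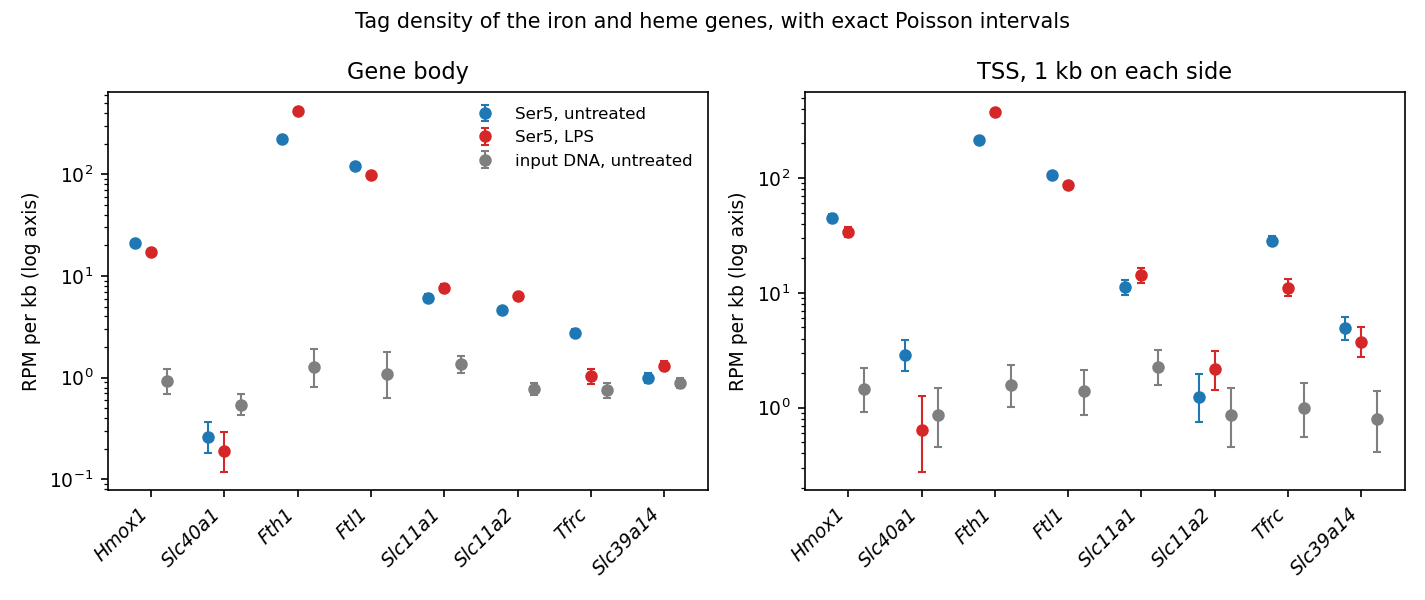
Density of tags (RPM per kb, log axis) over the gene body (left) and within 1 kb of the TSS (right) for each gene in the Ser5 untreated, Ser5 LPS and input libraries, with exact Poisson 95% intervals. Fth1 and Ftl1 lie near or above 100 in both Ser5 libraries and near 1 in the input, whereas the Slc40a1 gene body lies below its input.

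Against the input, 6 of the 8 gene bodies held at least 2 times the input level in untreated cells and 5 did after LPS. Over all protein-coding genes with enough tags these shares were 37.6% and 32.8%. Slc39a14 and Slc40a1 did not reach that level in either library, and Tfrc reached it only untreated. Those calls turned on the scaling, since with libraries scaled to tags outside peaks 7 gene bodies reached that level in each library, all but Slc40a1. Slc39a14 was then at 2.12 times the input untreated and 3.01 after LPS, and Tfrc at 2.79 after LPS. No share over all genes is given for that scaling, which raises the ratio to the input at every gene. All 8 genes had a Ser5 peak within 1 kb of the TSS in untreated cells and 7 did after LPS, against 48% and 45.9% of all genes. The gene without a peak after LPS was Slc40a1.

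The ratios of LPS to untreated differed in direction between these genes. A gene was called past the rule of size when LPS and untreated differed by at least 2 times, and both Ser5 libraries together held 10 tags or more, which all 8 genes did. Over the gene body 0 were at least 2 times higher (5.82% of 17386 genes tested) and 1, Tfrc, was at least 2 times lower (11.2%). At the TSS 0 were higher (5.61% of 12536 genes) and 2, Slc40a1 and Tfrc, were lower (14.1%). The median ratio of LPS to untreated over the 8 genes was 1.03 for the gene body and 0.795 for the TSS, and over all genes tested it was 0.873 and 0.831. So most of these genes stayed within a factor of 2, and neither count shows the set moving as one.

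**Figure D2:**
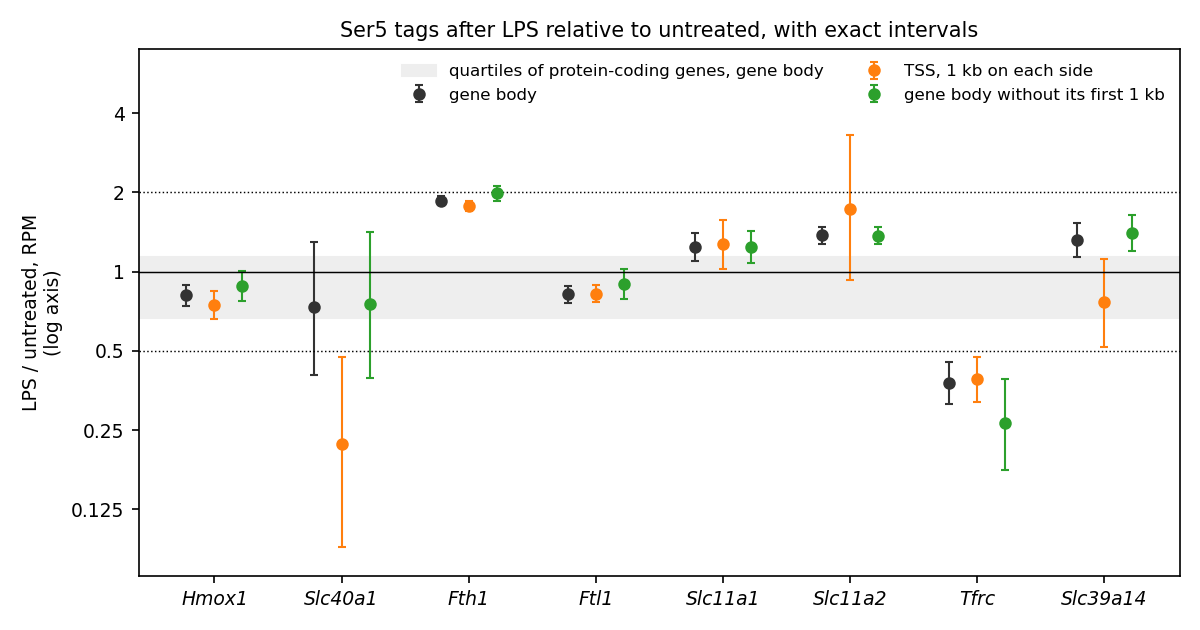
Ratio of LPS to untreated Ser5 RPM (log axis) for the gene body, the TSS and the gene body without its first 1 kb, with exact 95% intervals. Dotted lines mark a factor of 2 and the grey band runs from the first to the third quartile of all protein-coding genes over the gene body (0.665 to 1.14). Fth1 lies near the upper line at 1.86, Tfrc lies below the lower line in all 3 measures and Slc40a1 only at the TSS.

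Hmox1, the inducible heme oxygenase, was heavily occupied before LPS and less so after it. The gene (chr8:77617490-77624495, forward) held 1129 tags untreated, 753 after LPS and 49 in the input, that is 21.2, 17.2 and 0.928 RPM per kb. LPS over untreated gave a ratio of 0.813 (0.740 to 0.892), a modest fall from 1 that counting error alone does not cover. That interval includes the median over all genes, 0.873, and 42.9% of genes had a smaller ratio. At the TSS 690, 424 and 22 tags gave a ratio of 0.749 (0.662 to 0.846), an interval that includes the median of all genes there, 0.831. With 1 tag kept per position the TSS ratio rose to 0.877 and the gene-body ratio to 0.889. Ser5 Pol_II reached across the whole gene, since peaks covered 97.4% of it untreated and 92.4% after LPS. Beyond the 3′ end the next 5 kb held 325 and 164 tags (0.615, 0.507 to 0.744), while the body beyond its first 1 kb held 532 and 385 (0.882, 0.772 to 1.01). Fewer starts beyond the 3′ end can be placed at the 30 bases of the LPS tags (68.1%) than at the 45 of the untreated tags (88.4%), and with only starts placeable at 30 bases the ratio there was 0.664 (0.544 to 0.809).

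The peaks upstream of Hmox1 differed in their ratios, which for a peak called in 1 library alone are partly fixed by that selection. The peak 9.54 kb before the TSS, which holds the 3 overlapping motif pairs printed above, was called in untreated cells alone (score 155) and contained 34 tags untreated, 8 after LPS and 4 in the input, a ratio of 0.287 (0.115 to 0.631). The peak 3.98 kb before the TSS was called after LPS alone, with a score of 54.1, and held 13, 20 and 10 tags (1.88, 0.888 to 4.10). Both peaks lie where the known stress-responsive upstream enhancers of mouse Hmox1 are found. The peaks between them, near 7.3 and 8.6 kb, were called in both libraries, and the former held 63 and 46 tags (0.890, 0.595 to 1.32). Farther out, the largest upstream peak, 22.4 kb before the TSS, held 186 and 105 tags (0.688, 0.536 to 0.879). The motif TGACNNNGC occurred at 5.32 sites per kb in the peak at 9.54 kb and 4.25 in that at 3.98 kb, against 0.502 over all untreated and 0.473 over all LPS peaks. For TGAGTCA the rates were 5.32 and 2.12 per kb, against 0.221 and 0.219. Both peaks are short, 0.564 and 0.471 kb, so each rate rests on 1 to 3 sites. The TGAGTCA sites in them lie inside TGACNNNGC sites, so the rates of the 2 motifs are not separate. These peaks were picked after the data had been seen and had the highest TGACNNNGC rates upstream of Hmox1. In the other upstream peaks of Hmox1 that rate ran from 0 to 3.45 per kb. Rates above those of all peaks are therefore a description and no test.

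Fth1 encodes the ferritin heavy chain, the subunit that oxidises iron for storage, and carried the most Ser5 Pol_II of the 8 genes. Over the gene (chr19:10057193-10059582, forward) there were 4070 tags untreated, 6216 after LPS and 23 in the input, or 224, 416 and 1.28 RPM per kb. The ratio was 1.86 (1.79 to 1.94), and 93.2% of genes had a smaller one. The TSS window rose likewise, with 3255, 4740 and 24 tags and a ratio of 1.77 (1.70 to 1.86). Both measures lay under the factor of 2, and the gene-body call turned on the counting, since that ratio was 2.00 when libraries were scaled to tags outside peaks and 2.12 when only uniquely placeable starts were used. It was 1.61 with 1 tag per position, where the 4780 possible starts of this short gene limit the count.

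The rise at Fth1 was not confined to the gene. Beyond its 3′ end the next 5 kb held 4222 tags untreated and 7606 after LPS (2.20, 2.11 to 2.28), and the highest 500-bp bin there, 3 to 3.5 kb from the TSS, reached 423 and 965 RPM per kb. The highest bin within the gene, its first 500 bp, reached 470 and 762. This flank runs into the 3′ end of Best1, which is transcribed towards Fth1, and ChIP tags carry no strand of transcription. A single peak covered the gene and part of that flank in each library, 6298 bp long untreated and 7723 bp after LPS. Upstream, the 4 kb that begin 1 kb before the TSS went from 199 to 527 tags (3.23, 2.74 to 3.82).

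Within 30 kb upstream of Fth1 there were 5 peaks untreated and 10 after LPS. The LPS peak 4.35 kb before the TSS, which contains the Fth1 window printed above, held 161 tags untreated, 445 after LPS and 31 in the input (3.37, 2.81 to 4.06). An overlapping peak called in untreated cells, 4.18 kb before the TSS, held 134, 305 and 16 tags (2.77, 2.26 to 3.42). The intervals of both ratios lie wholly above the ratio of the gene itself. Both peaks overlap the 4 kb counted in the paragraph before, so they are not a separate signal. The peak 27.5 kb before the TSS, with the highest score, held 445, 713 and 27 tags (1.95, 1.73 to 2.20). The 10 LPS peaks had ratios from 1.38 to 15.8, the last of them on 1 untreated tag, and the 5 peaks of the untreated library had ratios from 1.35 to 2.77. A peak called in 1 library alone was chosen for being high there, so the LPS peaks that the untreated list lacks had to lean upwards. TGACNNNGC was found in 5 of the 10 LPS peaks. The peak at 4.35 kb held 3 sites in 2.95 kb, or 1.02 per kb, against 0.473 per kb over all LPS peaks. In the other upstream LPS peaks of Fth1 the rate ran from 0 to 2.48 per kb. The share of all peaks with a site is not given here, and a longer peak holds more sites by its length alone.

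**Figure D3:**
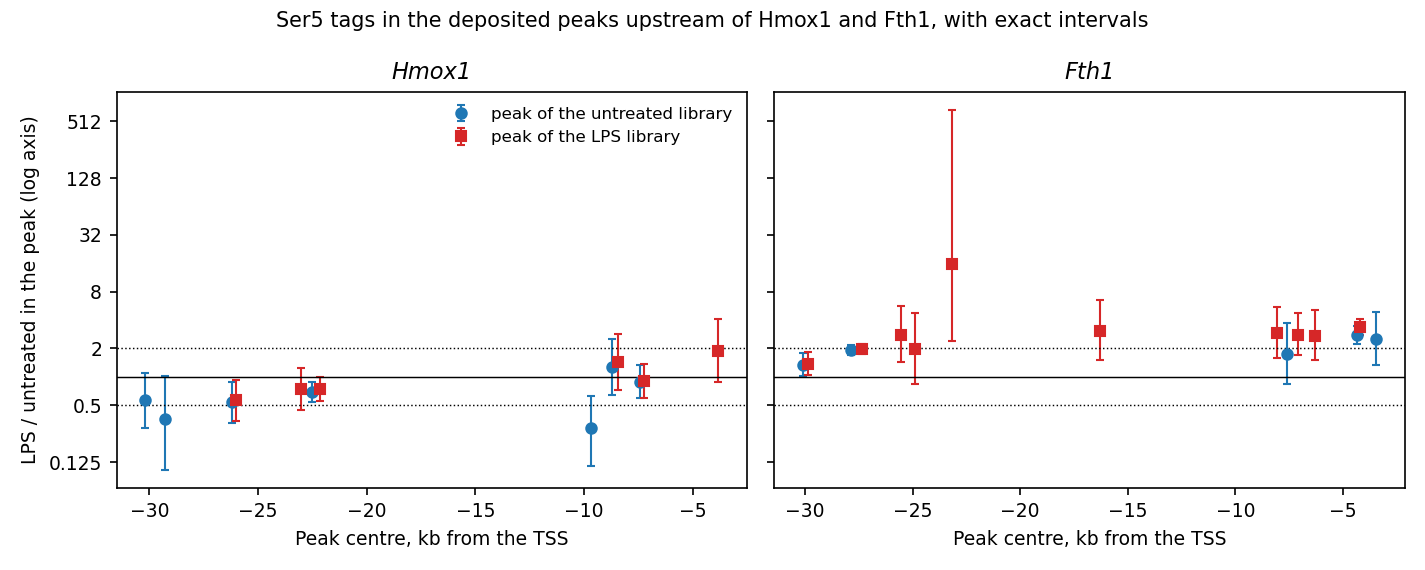
Ratio of LPS to untreated Ser5 RPM (log axis) in each deposited peak up to 30 kb upstream of Hmox1 (left) and Fth1 (right), against the distance of the peak centre from the TSS, with exact 95% intervals. Circles are peaks of the untreated library and squares peaks of the LPS library. All Fth1 peaks lie above 1, and the Hmox1 peaks run from 0.287 at 9.54 kb to 1.88 at 3.98 kb.

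Ftl1, the ferritin light chain, which helps to form the iron core, did not follow Fth1. The gene (chr7:52713314-52715254, reverse) held 1781 tags untreated, 1200 after LPS and 16 in the input, densities of 120, 98.9 and 1.09. The ratio was 0.821 (0.763 to 0.884), and that of the TSS window, from 1614, 1094 and 21 tags, was 0.826 (0.764 to 0.893). Both intervals include the median over all genes, 0.873 for the gene body and 0.831 for the TSS. The intervals of the Fth1 and Ftl1 ratios are far apart in both measures. The highest bin lay beyond the 3′ end in both libraries, 2.5 to 3 kb from the TSS, with 429 RPM per kb untreated and 375 after LPS. That bin lies between the 3′ end of Ftl1 and that of Gys1, which is transcribed towards it. The 5 kb beyond the 3′ end held 3430 and 2401 tags (0.853, 0.809 to 0.899). The single peak there spanned 7421 bp untreated and 6661 bp after LPS, and overlapped Gys1 and Bax. A miRNA record, AC151602.1, lies within Ftl1.

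Ferritin genes have many processed pseudogenes, so tags from their exons can match several places and were then discarded by the authors. Tag length set how many starts could be placed: 45 bases untreated, 30 after LPS and 36 in the input. In the Ftl1 body 59.8% of starts had no other match within 2 mismatches at 45 bases, 56.2% at 30 and 58.0% at 36. In the Fth1 body these shares were 87.8%, 79.3% and 83.1%, and in the 5 kb beyond its 3′ end 98.7%, 96.2% and 97.8%. Both ferritin densities are therefore low estimates within the gene. With only starts placeable at 30 bases counted in both Ser5 libraries, the ratio was 2.12 for Fth1 and 0.886 for Ftl1, so the contrast between the chains was as large.

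Slc40a1 encodes ferroportin, which carries iron out of the cell. Its gene body (chr1:45964915-45982439, reverse) held few tags: 35 untreated, 21 after LPS and 72 in the input. The Ser5 level was below the input in both libraries, 0.481 times (0.311 to 0.730) untreated and 0.352 times (0.205 to 0.578) after LPS. On this scale background reads lower in Ser5 than in the input, because 50.2% of untreated and 46.6% of LPS tags lay outside the peaks, against 95.5% of the input. The change over the gene body was not detectable at this depth (ratio 0.731, 0.404 to 1.29).

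Around the Slc40a1 TSS there was a signal in untreated cells that was mostly gone after LPS. The window held 44 tags untreated, 8 after LPS and 13 in the input, so it was 3.35 times the input (1.77 to 6.77) untreated and 0.742 times (0.267 to 1.93) after LPS. LPS over untreated came to 0.222 (0.0901 to 0.476), and 2.25% of genes had a smaller one. The tags lay just before the TSS, with 38 of them untreated and 5 after LPS in the preceding 1 kb. The untreated peak there was 421 bp long (score 151) and held 28, 6 and 4 tags, and no LPS peak overlapped it. Across the alternatives the ratio ran from 0.187 to 0.244.

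Tfrc encodes the transferrin receptor, the entry route for transferrin-bound iron. The gene (chr16:32609006-32632880, forward) held 497 tags untreated, 154 after LPS and 136 in the input, densities of 2.73, 1.03 and 0.756. The ratio of 0.378 (0.313 to 0.453) was the lowest of the 8 genes over the gene body, and 5.00% of genes had a smaller one. At the TSS 435, 139 and 15 tags gave 0.389 (0.319 to 0.472), still 11.2 times the input after LPS. Tags were packed at the start of the gene, where the first 1 kb held 69.6% of them untreated (65.4 to 73.5, Wilson) and 78.6% after LPS (71.4 to 84.3), against 4.41% in the input. In the remaining 22.9 kb there were 151 tags untreated and 33 after LPS (0.266, 0.177 to 0.390), which is 1.15 times the input (0.903 to 1.46) and 0.306 times (0.202 to 0.451). With libraries scaled to tags outside peaks these values were 2.18 (1.72 to 2.78) and 0.626 (0.414 to 0.923), so the untreated stretch lay above the input by that scaling and the LPS stretch by neither.

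Around Tfrc 3 smaller peaks were called in untreated cells alone, so low tag numbers after LPS were part of their selection and their ratios are a description. The peak 10.8 kb upstream held 24 tags untreated, 0 after LPS and 7 in the input, and the interval of its ratio ran up to 0.202. One beyond the 3′ end, 25.2 kb from the TSS, held 14, 0 and 0 tags, with an interval up to 0.367. The third, inside the gene at 5.39 kb, held 8, 2 and 3 tags. The TSS peak itself was called in both libraries, with scores of 2882 and 1151.

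Slc11a1 (Nramp1) pumps iron and other divalent metals out of the phagosome and is known for resistance to intracellular microbes. The gene (chr1:74421777-74432636, forward) held 508 tags untreated, 518 after LPS and 111 in the input, or 6.14, 7.63 and 1.36 RPM per kb. The ratio was 1.24 (1.10 to 1.41) over the gene body and 1.27 (1.02 to 1.57) at the TSS, the latter from 171, 178 and 34 tags. Peaks covered 41.7% of the gene untreated and 55.2% after LPS. Some nearby peaks went the other way. A peak 11.7 kb from the TSS, past the 3′ end, fell from 182 to 89 tags (0.596, 0.457 to 0.772), and a peak 6.72 kb upstream, inside Gm216, from 89 to 43 (0.589, 0.399 to 0.857). Farther past the 3′ end, within Ctdsp1, LPS peaks at 18.1, 19.7 and 20.8 kb rose, the last of them from 212 to 430 tags (2.47, 2.09 to 2.93).

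Slc11a2 (DMT1) moves ferrous iron across the endosomal and plasma membranes. The gene (chr15:100218329-100255503, reverse) held 1311 tags untreated, 1477 after LPS and 217 in the input, densities of 4.63, 6.36 and 0.775 and a ratio of 1.37 (1.27 to 1.48). The 5′ end of its gene record held little, with 19, 27 and 13 tags in the TSS window (1.73, 0.928 to 3.30). The tags lay at transcript starts 2017 and 2070 bases farther in, where the window held 236, 316 and 22 tags and the ratio was 1.63 (1.37 to 1.94). Gm5475, a gene on the other strand, overlaps that stretch, and reads of either gene cannot be told apart. Peaks spread over the gene, 20 untreated and 28 after LPS, covering 30.6% and 44.5% of it. A peak 18.6 kb upstream went from 73 to 41 tags (0.684, 0.455 to 1.02). The 200 bases at its centre were the only ones among the highest-scoring upstream peaks of these genes to hold TGACNNNGC. Of all untreated peak centres 9.96% held it, and Slc40a1 had no upstream peak to search.

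Slc39a14 (ZIP14) imports zinc and iron that is not bound to transferrin, and it is known to rise in inflammation in the liver. The gene (chr14:70703274-70751232, reverse) held 364 tags untreated, 394 after LPS and 323 in the input, densities of 0.996, 1.31 and 0.894. The ratio was 1.32 (1.14 to 1.53) over the gene body, whereas the TSS window, with 75, 47 and 12 tags, gave 0.764 (0.519 to 1.11). Without its first 1 kb the gene was at 0.980 times the input (0.835 to 1.15) untreated and 1.37 times (1.18 to 1.60) after LPS. After LPS alone, peaks were called inside the gene 21.2 kb from the TSS, with 3, 15 and 2 tags (6.09, 1.72 to 32.8), and at 42.7 kb, with 12, 19 and 1 (1.93, 0.889 to 4.36). A peak 19.3 kb upstream was called untreated alone and held 20 and 3 tags (0.183, 0.0348 to 0.616). When all annotated transcript starts were pooled the TSS ratio was 1.01, so its direction depended on which starts were counted.

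Along the genes, Ser5 tags were spread in different ways. Tfrc had its maximum at the start, where the first 1 kb was 52.4 times as dense as the rest untreated and 83.9 times after LPS. Slc40a1 had a maximum just before the TSS in untreated cells (7.88 RPM per kb in the last 500 bp) and none that stood out after LPS. Slc39a14 had its maximum in the first 500 bp, 12.6 untreated and 10.6 after LPS. Fth1 and Ftl1 had a maximum within the gene and one of like or greater height past its 3′ end. Slc11a1 had a high bin past its 3′ end, 11.5 to 12 kb from the TSS. Untreated it held 34.4 RPM per kb against 27.6 in the highest bin of the gene. After LPS the order was the other way, with 20.8 against 34.2. Hmox1, Slc11a1 and Slc11a2 carried tags along their length, and at Hmox1 the first 1 kb was 6.74 times as dense as the rest untreated and 5.74 times after LPS. Slc11a1 kept its shape, with 25.2% and 25.3% of its tags in the first 1 kb.

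**Figure D4:**
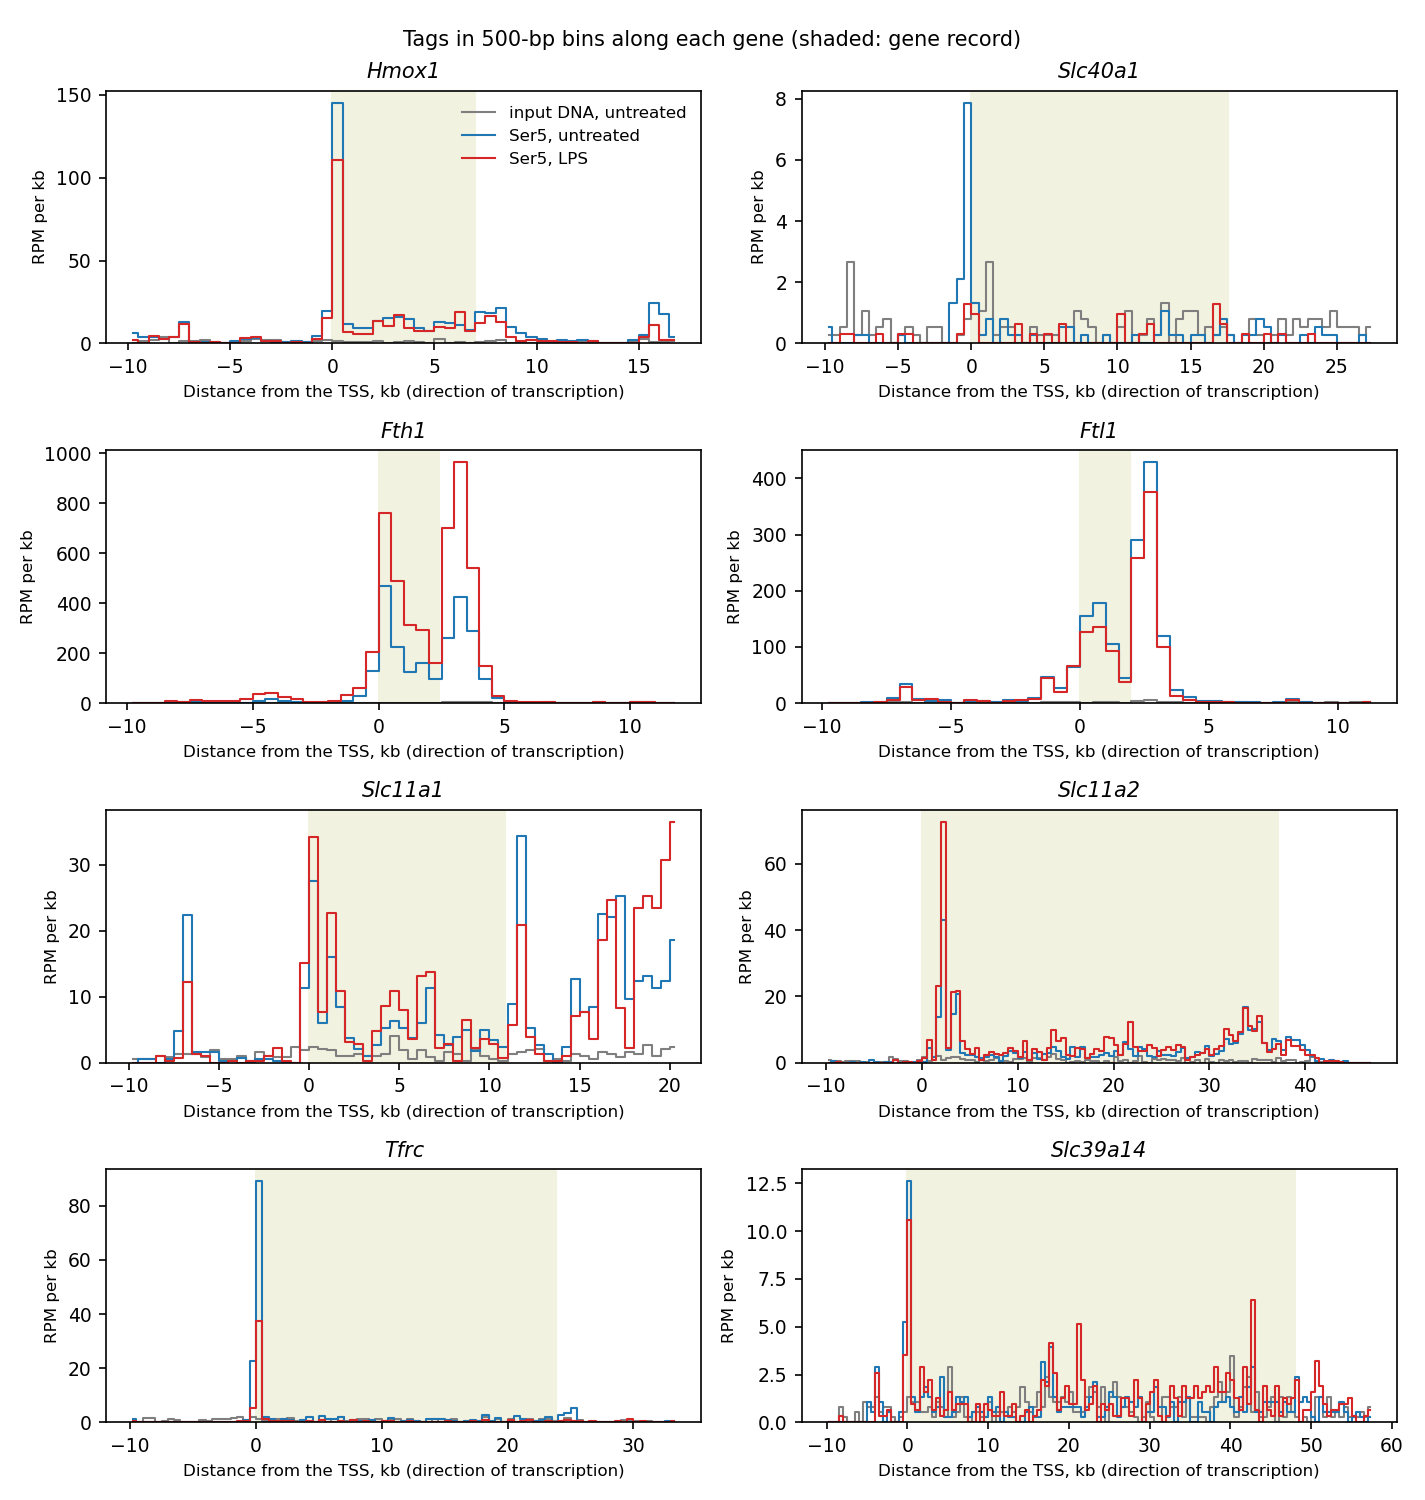
Density of tags (RPM per kb) in 500-bp bins from 10 kb before the TSS to about 10 kb past the 3′ end of each gene, in the direction of transcription, for the Ser5 untreated, Ser5 LPS and input libraries. Shading marks the gene record and each panel has its own vertical scale. Fth1 and Ftl1 show a second maximum beyond the shaded gene, and Tfrc has its maximum in the first bin.

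Of 35 further iron and heme genes, 31 had a single protein-coding record and at least 10 tags, and Flvcr1, Flvcr2, Tfr2 and Trf were not analysed here. Over the gene body 5 of the 31 were at least 2 times higher after LPS, 4 were at least 2 times lower and 22 lay between, with a median ratio of 0.877 against 0.873 over all genes. Over all genes tested 5.82% were at least 2 times higher and 11.2% lower, so the 4 lower genes are a share near the background. Lcn2, which binds bacterial iron carriers, rose most, from 6 to 104 tags with 19 in the input (21.1, 9.38 to 58.9). Blvrb, a biliverdin reductase acting after heme oxygenase, went from 563 to 1276 tags (2.76, 2.50 to 3.06), and Slc25a37, the mitochondrial iron importer, from 617 to 1074 (2.12, 1.92 to 2.35). Nfe2l2, the gene of Nrf2, went from 2060 to 3423 (2.03, 1.92 to 2.14). Cp (ceruloplasmin, which oxidises exported iron) had a ratio of 2.20 (1.83 to 2.66), but it overlaps Hps3.

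The 4 genes at least 2 times lower, a share near the background, were Lrp1, Cd163, Steap3 and Blvra. Lrp1, a receptor for hemopexin-bound heme, went from 4727 to 334 tags (0.0861, 0.0768 to 0.0962). Cd163, the receptor for haptoglobin-bound hemoglobin, went from 363 to 58 (0.195, 0.145 to 0.257). Steap3, an endosomal ferric reductase, went from 1076 to 267 (0.302, 0.263 to 0.346) and Blvra, the other biliverdin reductase, from 535 to 158 (0.360, 0.299 to 0.431). Bach1, the gene of the heme-sensing repressor, went from 785 to 431 tags (0.669, 0.594 to 0.754), within the factor of 2. The highest untreated density on the list was that of Pcbp1, an iron chaperone that loads ferritin (16.3 RPM per kb), and the lowest that of Heph, a ferroxidase (0.0474).

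**Figure D5:**
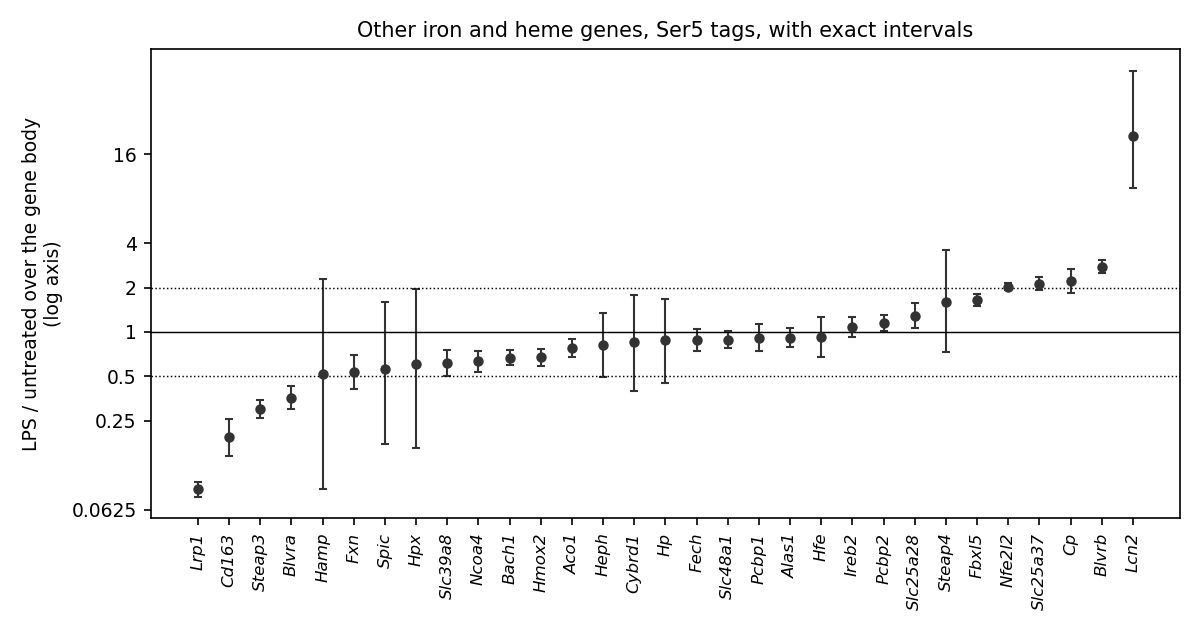
Ratio of LPS to untreated Ser5 RPM over the gene body (log axis) for the 31 other iron and heme genes, in rising order, with exact 95% intervals. Dotted lines mark a factor of 2. The points run from 0.0861 for Lrp1 to 21.1 for Lcn2.

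The genes most like Fth1 and Tfrc in level were sought among 12604 protein-coding genes that had 100 or more tags in the 2 Ser5 libraries combined, by the distance of their log2 gene-body densities in those 2 libraries. Fth1 had no close neighbour: the nearest were Ccl2 (distance 1.16), Hist1h1c (1.19) and Hist1h1e (1.31). Tfrc had 287 genes within a distance of 0.5, and the nearest were Cep250 (0.018), Klhl17 (0.023) and Inf2 (0.033). With 1 library per condition such likeness describes these libraries alone.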

How the data were processed

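The deposited files hold aligned tags of 2 Ser5 Pol_II libraries (untreated, LPS) and 1 input library, and 1 peak list per Ser5 library. The authors trimmed the reads at the 3′ end and mapped them with Bowtie to mm9, where a read had to match 1 place only, with no more than 2 mismatches. The deposited tags are 45 bases long (untreated), 30 (LPS) and 36 (input). The methods state the 2 Ser5 lengths the other way round, and the LPS response genes were high in the library labelled LPS. The trimming of the input, and tool versions, are not given in the sources used here. The authors called peaks in each Ser5 library with MACS, with the input as control and a p-value limit of 1e-05, and the deposited peak score is minus 10 times the log10 of that p-value.

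Tag positions were counted from 0, as the placeability of their sequences showed, and were moved to counting from 1. Each tag on chromosomes 1 to 19 and X was counted once by its 5′ end, duplicates included, over GENCODE M1 gene records and within 1000 bp of their 5′ ends. Levels are RPM, tags scaled to a library of 1000000. Tag counts have exact Poisson intervals, ratios exact conditional (Clopper-Pearson) intervals and shares Wilson intervals, all at 95%. They cover counting error only, and PCR copies are not independent molecules. With 1 library per condition no test was made, and a rule of size stood in for one (at least 2 times, at least 10 tags over both Ser5 libraries, 0 tags set to 0.5). The scripts (Python 3.11.15, numpy 2.4.6, pandas 2.3.3, scipy 1.17.1, numba 0.67.0, matplotlib 3.10.9) were tested on simulated data. Sequences were read from the NCBIM37 (mm9) genome, and not all promoter sequences are reported here.

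The genes, the further iron and heme list and the tests were chosen with earlier results of these data known. All 8 genes are given in full. Of the other list those past the rule of size and the highest and lowest untreated density were named, and Bach1 was added after its values were seen. The search of whole upstream peaks and the 4 core promoter elements were also added after seeing the data. The alternatives kept 1 tag per position, scaled to tags outside peaks, moved 5′ ends by 75 bp, dropped the minimum of tags, used only placeable starts, dropped the first 1 kb, changed the TSS window, and changed the peak score, window or overlap.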

Additional observations from a re-analysis of the deposited data

How the results depend on the processing

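Most counts held under the alternatives. Scaling to tags outside peaks multiplied every ratio of LPS to untreated by 1.08. The count of genes at least 2 times higher over the gene body went from 0 to 1 with that scaling and to 1 with starts placeable at 30 bases, in both cases Fth1 (2.00 and 2.12). The count of genes with a TSS peak after LPS went from 7 to 4 when the peak midpoint had to lie inside the window. The long LPS peaks of Fth1, Ftl1 and Slc11a1 have their midpoint outside it. The untreated count went from 8 to 6, without Fth1 and Ftl1. No share of all genes is given for the midpoint rule, so these counts cannot be set against a background. The median ratio of the 8 genes ran up to 1.11 over the gene body and up to 0.919 at the TSS. Of the ratios of LPS to untreated over the gene body and at the TSS, only that of Slc39a14 at the TSS crossed 1, to 1.01 with all transcript starts, and that of Slc11a2 at the TSS reached 7.31 within 500 bp, where few tags lay. With 1 tag per position Tfrc was at 0.487 at the TSS and 0.440 over the gene body. Scaling to tags outside peaks put 7 of the 8 gene bodies at 2 times the input in each library, against 6 untreated and 5 after LPS. It raises the ratio to the input at every gene, and the count of 7 has no share over all genes beside it. The values of this scaling over the input for single genes, and the ratios beyond the 3′ end at placeable starts, were chosen after seeing the data. No paired analysis was possible because each condition had 1 library, so none was left out either. Depth limits the Slc40a1 gene body and the peaks with under 30 tags, and nothing here measures how much cultures differ.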
